A study of Mus musculus with 19 samples.

Results

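The genes described here encode the enzymes that write, copy and remove DNA methylation, together with their cofactors: Dnmt1, Dnmt3a, Dnmt3b, Dnmt3l, Uhrf1, Tet1, Tet2, Tet3 and Tdg. They were taken by gene symbol, with earlier results of these data known, and all 9 were found among the 21685 genes of the deposited table. Expression had been measured by mRNA sequencing in male C57BL/6 mouse embryonic stem cells, cultured in serum with leukaemia inhibitory factor (LIF), from which SSEA-1-positive cells had been taken with magnetic beads (SSEA-1 is a surface antigen of undifferentiated cells). The question set by the series was what follows for the transcriptome when Trim71 and Lin28a are lost singly or together. The first encodes a ubiquitin ligase that also binds mRNA, and the second a protein that keeps let-7 microRNAs from maturing.

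Each of the 4 genotypes is named by its Trim71 state and then its Lin28a state. WT-WT cells were Trimfl/fl and Lin28afl/fl, so that WT stands for an intact but conditional allele (n = 4). KO-WT cells were Trim-/- and Lin28afl/fl (n = 4 libraries used). WT-KO cells were Trimfl/fl and Lin28a-/- (n = 5), and KO-KO cells were Trim-/- and Lin28a-/- (n = 5). Trim71 was deleted by 500 nM 4-hydroxytamoxifen for 2 days, with at least 7 days of further culture before harvest. Whether the Trim71-intact cells received a vehicle is not given in the sources used here. Only the Trim71-null libraries have this dose given, so Trim71 state and this treatment cannot be told apart in any value below. The 18 libraries came from 4 clones and 5 harvest days. Clones 1 and E3 were the Lin28a-intact cells and clones 1-4 and C1 the Lin28a-null cells, so Lin28a state and clone cannot be told apart in any value below. No label says that the libraries of a genotype were separate cultures, so p-values measure only the spread between these libraries.

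In mammalian cells methyl groups are placed on cytosine, mostly at CpG dinucleotides. Dnmt3a and Dnmt3b methylate unmodified DNA, and Dnmt3l, which has no catalytic activity of its own, binds and stimulates them. After replication Uhrf1 recognises the hemimethylated sites and recruits Dnmt1, which restores the mark on the daughter strand. Tet1, Tet2 and Tet3 oxidise 5-methylcytosine, and Tdg excises the more oxidised products so that base excision repair can put back an unmodified cytosine. Stem cells in serum carry a highly methylated genome and express Tet1, Tet2 and Dnmt3l, the last of which is otherwise found mainly in germ cells.

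Stretches of promoter are shown for 2 of the pairs of genes whose values moved together across the 18 libraries: the maintenance genes Dnmt1 and Uhrf1, and the oxidases Tet1 and Tet2. They were chosen for their shared roles; other pairs, such as Dnmt3b with Dnmt3l, also moved together. The sequences are from RefSeq on GRCm38.p6, and all 9 genes had at least 1 promoter window, each of 250 bases before to 50 after an annotated start. The windows were searched on both strands for letters bound by E2F, a factor of S-phase genes (TTTGGCGC, TTTCCCGC or TTTCGCGC), for the GC box GGGCGG and for CCAAT. E2F letters were present in 1.8% of all 32851 windows, the GC box in 35.7% and CCAAT in 37.4%. Among the 16 windows of the 9 genes, E2F letters were present in 1 of 3 windows of Dnmt1 and in 1 of 2 of Uhrf1. Capitals mark these letters in the 30 bases around them, at chr9:20952824-20952853 on the minus strand for Dnmt1 and at chr17:56304117-56304146 on the plus strand for Uhrf1. In Dnmt1 they begin 219 bases before the start and read TTTCGCGC on the other strand, and in Uhrf1 they begin 185 bases before the start; neither other motif overlaps them.
Dnmt1: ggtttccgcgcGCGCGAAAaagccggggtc
Uhrf1: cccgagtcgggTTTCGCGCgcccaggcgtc
The Tet1 and Tet2 windows each had a GC box but neither E2F letters nor CCAAT. For these, the 250 bases before the start are shown with CpG in capitals, at chr10:62887325-62887574 for Tet1 and at chr3:133544391-133544640 for Tet2, both on the minus strand. They hold 15 CpG in Tet1 and 51 in Tet2.
Tet1: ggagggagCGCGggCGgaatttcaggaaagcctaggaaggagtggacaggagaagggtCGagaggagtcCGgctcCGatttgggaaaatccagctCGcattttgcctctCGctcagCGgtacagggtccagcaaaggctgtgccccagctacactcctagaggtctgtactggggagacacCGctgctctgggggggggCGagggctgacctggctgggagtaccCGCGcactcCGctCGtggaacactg
Tet2: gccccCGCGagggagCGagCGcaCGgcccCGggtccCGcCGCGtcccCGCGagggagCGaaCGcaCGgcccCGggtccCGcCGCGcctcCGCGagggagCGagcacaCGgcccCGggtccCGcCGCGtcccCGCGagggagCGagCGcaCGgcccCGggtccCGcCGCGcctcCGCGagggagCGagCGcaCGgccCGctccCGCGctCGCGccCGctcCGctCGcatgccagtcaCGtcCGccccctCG
Over the full windows of 300 bases, Tet2 had 57 CpG, more than 99.8% of all windows, and Tet1 had 17, more than 68.6%; the median window had 7. A match of letters is a description of the sequence and not of binding.

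Because the series concerns let-7, the 3′ untranslated regions of the 9 genes were read for its seed match. Mature let-7a-5p from the RefSeq table is shown with its seed, bases 2 to 8, in capitals; all 8 let-7 names with a 5p arm in that table share this seed.
let-7a-5p: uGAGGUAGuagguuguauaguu
The letters CTACCTC, which pair with the seed, were present in the 3′ untranslated region of 1324 of 12367 tested genes (10.7%) and, among the 9 genes, in Tet3 only. The site begins at base 2706 of the 5669 of the GENCODE M21 transcript and is shown in capitals.
Tet3 site: acatgtataacCTACCTCaaatctgtcact

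Values throughout are the deposited log2 normalised expression, from which differences between harvest days had already been removed, so the spread between libraries of a genotype leaves out that part of the variation. They are not per unit of gene length, so levels are compared between genotypes and not between genes. Library depth is unknown. Mean Trim71 expression was 10.21 in WT-WT, 8.89 in KO-WT, 10.65 in WT-KO and 9.28 in KO-KO, and mean Lin28a expression was 10.13, 9.84, 8.47 and 8.28 in the same order; the exons removed from either gene are not given in the sources used here. A gene was called where limma gave a Benjamini-Hochberg adjusted p-value under 0.05 over all 14988 genes tested, and all 9 genes passed the filter for testing. Differences are given in log2 units with their standard errors.

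Loss of Lin28a was accompanied by changes in most of these enzymes. In Trim71-intact cells 6 of the 9 genes were called, 3 lower (Dnmt3a, Dnmt3b and Dnmt3l) and 3 higher (Dnmt1, Uhrf1 and Tet1), where 42.4% of all genes tested were called, 20.3% higher and 22% lower. In Trim71-null cells 7 were called, the same 6 in the same directions and Tet2 higher, against 42.8% of all genes, 20.8% higher and 22% lower. Loss of Trim71 was accompanied by 1 call in Lin28a-intact cells and 1 in Lin28a-null cells, Tet3 in both, which was higher; the shares over all genes were 11.2% (4.74% higher, 6.43% lower) and 8.38% (4.26% higher, 4.12% lower). Between KO-KO and WT-WT all 9 genes were called, 6 higher and 3 lower, against 45.6% of all genes, 21% higher and 24.6% lower. The comparisons share genotypes and so are not independent of each other. The median difference over the 9 genes was 0.14 for Lin28a loss in either Trim71 state and 0.25 for loss of both, beside -0.0077, -0.0008 and -0.0195 over all genes. The called genes went in both directions, so these medians do not describe a common shift. The libraries of the 2 genotypes did not overlap for 4 of the 9 genes with Lin28a loss in Trim71-intact cells (40.8% of all genes), for 8 in Trim71-null cells (40.7%) and for 8 with loss of both (44.5%). With Trim71 loss they did not overlap for 3 genes with Lin28a intact (28.2% of all genes) and for 2 without Lin28a (12.6%).

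**Figure D1:**
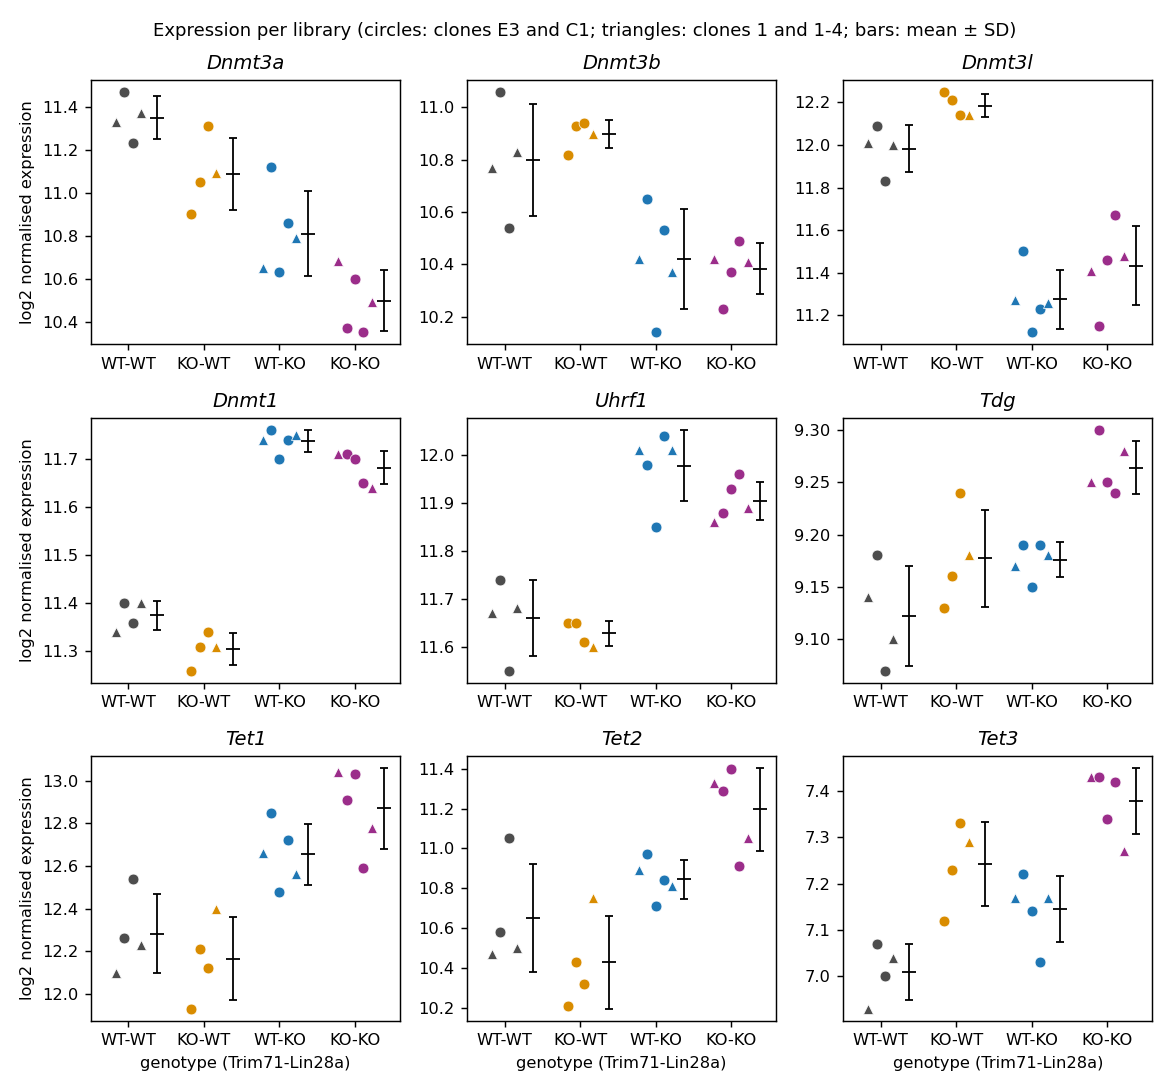
Log2 normalised expression of each gene (vertical axis, its own range per panel) in each of the 18 libraries, by genotype (horizontal axis, Trim71 state first). Circles are clones E3 and C1, triangles clones 1 and 1-4, and bars the mean ± SD (n = 4, 4, 5 and 5). Dnmt1, Dnmt3l and Uhrf1 split by Lin28a state with no overlap, and the means of Tet1, Tet2, Tet3 and Tdg were highest in KO-KO.

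The de novo group was lower without Lin28a. Dnmt3a, the de novo methyltransferase that persists in differentiated cells, stood at 11.33, 11.47, 11.23 and 11.37 in the WT-WT libraries (mean 11.35 ± 0.0977, SD, n = 4). In KO-WT it was 10.90, 11.05, 11.31 and 11.09 (mean 11.09 ± 0.168, n = 4). The WT-KO libraries held 10.65, 11.12, 10.63, 10.86 and 10.79 (mean 10.81 ± 0.197, n = 5), and the KO-KO libraries 10.68, 10.37, 10.60, 10.35 and 10.49 (mean 10.50 ± 0.142, n = 5). Every library of a Lin28a-null genotype lay below every library of the Lin28a-intact genotype with the same Trim71 state. Dnmt3a fell by 0.54 ± 0.10 in Trim71-intact cells (1.45-fold lower, limma adjusted p = 0.000661) and, in Trim71-null cells, by 0.59 ± 0.10 (1.51-fold, adjusted p = 0.000303). Between KO-KO and WT-WT it fell by 0.85 ± 0.10 (1.81-fold, adjusted p = 8.33e-06), the largest difference of the 9 genes in any comparison. The differences for Trim71 loss, -0.26 ± 0.11 with Lin28a intact (adjusted p = 0.135) and -0.31 ± 0.097 without Lin28a (adjusted p = 0.0557), did not pass the threshold, and their genotypes overlapped. The second passed it in 5 of 18 fits that left out 1 library (WT-KO replicate 1 or 3, KO-KO replicate 1, KO-WT replicate 1 or 3; adjusted p down to 0.0310) and after correction for GC content and length (adjusted p = 0.0150). The value of the second was -0.197 without WT-KO replicate 2. With no day term both differences passed the threshold (limma adjusted p = 0.0497 and 0.0167).

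Dnmt3b, the de novo enzyme predominant in the early embryo, ranged from 10.54 to 11.06 in WT-WT and from 10.82 to 10.94 in KO-WT. It ranged from 10.14 to 10.65 in WT-KO and from 10.23 to 10.49 in KO-KO. Only WT-WT replicate 3, at 10.54, came down into the range of a Lin28a-null genotype. Dnmt3b fell by 0.38 ± 0.10 with Lin28a loss in Trim71-intact cells (1.30-fold, adjusted p = 0.00633) and, in Trim71-null cells, by 0.52 ± 0.10 (1.43-fold, adjusted p = 0.000656). Trim71 loss gave 0.10 ± 0.11 and -0.04 ± 0.094, neither past the threshold (adjusted p = 0.581 and 0.854).

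Dnmt3l, the catalytically inactive cofactor, had the clearest separation of the de novo group. Its WT-WT libraries held 12.01, 12.09, 11.83 and 12.00 (mean 11.98 ± 0.108, n = 4) and its KO-WT libraries 12.25, 12.21, 12.14 and 12.14 (mean 12.19 ± 0.0558, n = 4). In WT-KO it stood at 11.27, 11.50, 11.12, 11.23 and 11.26 (mean 11.27 ± 0.139, n = 5). In KO-KO it stood at 11.41, 11.15, 11.46, 11.67 and 11.48 (mean 11.43 ± 0.190, n = 5). The lowest Lin28a-intact library, at 11.83, lay above the highest Lin28a-null library, at 11.67. Dnmt3l fell by 0.71 ± 0.092 in Trim71-intact cells (1.63-fold, adjusted p = 1.73e-05) and, in Trim71-null cells, by 0.75 ± 0.092 (1.68-fold, adjusted p = 9.50e-06). With Trim71 loss the difference was 0.20 ± 0.10 with Lin28a intact, where the libraries did not overlap but the threshold was not passed (adjusted p = 0.188), and 0.16 ± 0.086 without Lin28a (adjusted p = 0.282).

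The maintenance pair moved the other way. Dnmt1, the methyltransferase that copies the mark at replication, stood at 11.34, 11.40, 11.36 and 11.40 in WT-WT (mean 11.38 ± 0.0270, n = 4) and at 11.26, 11.31, 11.34 and 11.31 in KO-WT (mean 11.31 ± 0.0368, n = 4). Its WT-KO libraries held 11.74, 11.76, 11.70, 11.74 and 11.75 (mean 11.74 ± 0.0246, n = 5) and its KO-KO libraries 11.71, 11.71, 11.70, 11.65 and 11.64 (mean 11.68 ± 0.0320, n = 5). The Lin28a-null libraries thus lay between 11.64 and 11.76 and the Lin28a-intact ones between 11.26 and 11.40, with no overlap. Dnmt1 was higher by 0.36 ± 0.036 without Lin28a in Trim71-intact cells (1.29-fold, adjusted p = 9.67e-07) and, in Trim71-null cells, by 0.37 ± 0.036 (1.30-fold, adjusted p = 6.67e-07). It was higher on every one of the 4 harvest days on which each pair of genotypes could be compared. With no overlap, this had to be so. Trim71 loss gave -0.07 ± 0.039 and -0.06 ± 0.033 (adjusted p = 0.242 and 0.306).

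Uhrf1, the protein that brings Dnmt1 to hemimethylated DNA, ranged from 11.55 to 11.74 in WT-WT and from 11.60 to 11.65 in KO-WT. The Lin28a-null ranges were higher and did not meet these, at 11.85 to 12.04 in WT-KO and 11.86 to 11.96 in KO-KO. Without Lin28a, Uhrf1 rose by 0.32 ± 0.048 in Trim71-intact cells (1.25-fold, adjusted p = 7.38e-05) and, in Trim71-null cells, by 0.28 ± 0.048 (1.21-fold, adjusted p = 0.000259). With Trim71 loss the differences were -0.03 ± 0.052 and -0.07 ± 0.045 (adjusted p = 0.724 and 0.353).

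**Figure D2:**
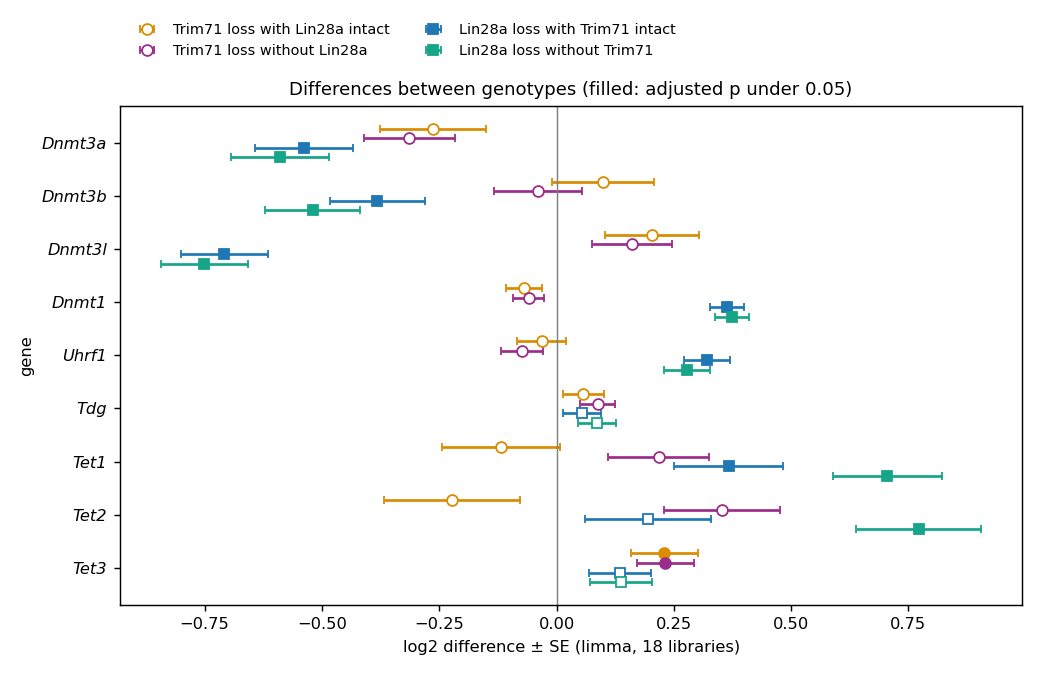
Log2 difference ± SE of each gene (rows) for the 4 single losses, from limma over 18 libraries; filled symbols have an adjusted p under 0.05. Squares for Lin28a loss lie left of 0 for Dnmt3a, Dnmt3b and Dnmt3l and right of 0 for Dnmt1, Uhrf1 and Tet1, and Tet3 has the only filled circles for Trim71 loss.

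The oxidising enzymes Tet1 and Tet2 were highest in cells without either gene. Tet1, a main oxidase of stem cells, stood at 12.10, 12.26, 12.54 and 12.23 in WT-WT (mean 12.28 ± 0.186, n = 4) and at 11.93, 12.21, 12.12 and 12.40 in KO-WT (mean 12.17 ± 0.194, n = 4). It stood at 12.66, 12.85, 12.48, 12.72 and 12.56 in WT-KO (mean 12.65 ± 0.143, n = 5). The KO-KO libraries held 13.04, 12.91, 13.03, 12.59 and 12.78 (mean 12.87 ± 0.186, n = 5). All KO-KO libraries lay above all KO-WT and WT-WT libraries, whereas WT-KO met WT-WT through WT-WT replicate 3. Tet1 was higher without Lin28a by 0.37 ± 0.12 in Trim71-intact cells (1.29-fold, adjusted p = 0.0180) and, in Trim71-null cells, by 0.705 ± 0.12 (1.63-fold, adjusted p = 0.000161). The call in Trim71-intact cells was lost without WT-WT replicate 1 (adjusted p = 0.0915) or WT-WT replicate 4 (adjusted p = 0.0550).

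Tet2, a related oxidase that lacks the CXXC domain of Tet1, stood at 10.47, 10.58, 11.05 and 10.50 in WT-WT (mean 10.65 ± 0.268, n = 4) and at 10.21, 10.43, 10.32 and 10.75 in KO-WT (mean 10.43 ± 0.234, n = 4). It stood at 10.89, 10.97, 10.71, 10.84 and 10.81 in WT-KO (mean 10.84 ± 0.0962, n = 5). The KO-KO libraries held 11.33, 11.29, 11.40, 10.91 and 11.05 (mean 11.20 ± 0.208, n = 5). WT-WT replicate 3 reached the KO-KO range, and KO-WT replicate 4 reached the WT-KO range. Without Lin28a, Tet2 rose by 0.77 ± 0.13 in Trim71-null cells (1.71-fold, adjusted p = 0.000246), and by 0.39 in clones 1 and 1-4 alone. In Trim71-intact cells the difference was 0.195 ± 0.13 (limma adjusted p = 0.254), and it passed the threshold without WT-WT replicate 3, at 0.37 (limma adjusted p = 0.0156). It also passed with the GC and length correction, at 0.27 (limma adjusted p = 0.034), and in clones 1 and 1-4 alone.

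For Trim71 loss, Tet1 differed by -0.12 ± 0.13 with Lin28a intact and by 0.22 ± 0.11 without Lin28a (adjusted p = 0.561 and 0.240), and Tet2 by -0.22 ± 0.14 and 0.35 ± 0.12 (adjusted p = 0.323 and 0.0903). The Tet2 value without Lin28a passed the threshold without WT-WT replicate 3 (adjusted p = 0.0269) or KO-KO replicate 4 (0.0356), with only the genotypes compared (0.0196), with the GC and length correction (0.0247), in clones 1 and 1-4 alone (0.0421) and with no day term (0.0343). The value with Lin28a intact ranged from -0.382 to -0.0286 when single libraries were left out. The difference between the 2 Lin28a states was tested as the interaction. It was 0.58 ± 0.19 for Tet2 (limma adjusted p = 0.234) and 0.34 ± 0.17 for Tet1 (limma adjusted p = 0.348), so neither gene was shown to respond differently to Trim71 loss in the 2 states. None of the 9 genes was called for the interaction in limma, where 3 of all 14988 genes were called (0.02%). At an unadjusted p under 0.05 there were 2256 genes, and Tet2 was the only one of the 9.

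Tet3, the oxidase best known from the oocyte and zygote, was the gene called for loss of Trim71. Its WT-WT libraries held 6.93, 7.07, 7.00 and 7.04 (mean 7.01 ± 0.0629, n = 4) and its KO-WT libraries 7.12, 7.23, 7.33 and 7.29 (mean 7.24 ± 0.0932, n = 4). In WT-KO it stood at 7.17, 7.22, 7.14, 7.03 and 7.17 (mean 7.15 ± 0.0734, n = 5), and in KO-KO at 7.43, 7.43, 7.34, 7.42 and 7.27 (mean 7.38 ± 0.0716, n = 5). Trim71-null libraries lay above Trim71-intact ones of the same Lin28a state without overlap. Without overlap, Tet3 was necessarily higher on all 3 and all 5 harvest days that held both genotypes. The difference was 0.23 ± 0.071 with Lin28a intact (1.17-fold, limma adjusted p = 0.0482) and 0.23 ± 0.061 without Lin28a (1.17-fold, limma adjusted p = 0.0278). Both calls were close to the threshold. Leaving out single libraries removed the first in 13 of 18 cases, with adjusted p up to 0.173, and the second in 6 of 18, with adjusted p up to 0.0950, while the difference stayed between 0.187 and 0.275 in the first comparison and between 0.191 and 0.267 in the second. Lin28a loss gave 0.14 ± 0.066 in both Trim71 states (adjusted p = 0.106 and 0.101), and KO-KO exceeded WT-WT by 0.37 ± 0.066 (1.29-fold, adjusted p = 0.000317).

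Tdg, the glycosylase that removes the oxidised bases, differed least. Its ranges were 9.07 to 9.18 in WT-WT, 9.13 to 9.24 in KO-WT, 9.15 to 9.19 in WT-KO and 9.24 to 9.30 in KO-KO. KO-KO lay above WT-WT by 0.14 ± 0.040 (1.10-fold, adjusted p = 0.00867), which was the sole call for this gene. The 4 single losses gave between 0.055 and 0.088, with adjusted p between 0.0958 and 0.404.

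Libraries of one genotype also differed in a shared way. After each gene's genotype mean was subtracted, Tet1 and Tet2 correlated at Pearson r = 0.94 over the 18 libraries, as a description. WT-WT replicate 3 was the highest of its genotype for both, at 0.26 and 0.40 from the mean, and KO-KO replicate 4 the lowest, at -0.28 and -0.29. Dnmt3b and Dnmt3l correlated at r = 0.74, and Dnmt3b and Uhrf1 at r = 0.76, in the same deviations. Dnmt1 and Uhrf1, which differed in the same direction between genotypes, had r = 0.24 within them. The same WT-WT replicate 3 was the lowest of its genotype for Dnmt3a, Dnmt3b, Dnmt3l and Uhrf1. These points share the library and the removal of day differences.

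**Figure D3:**
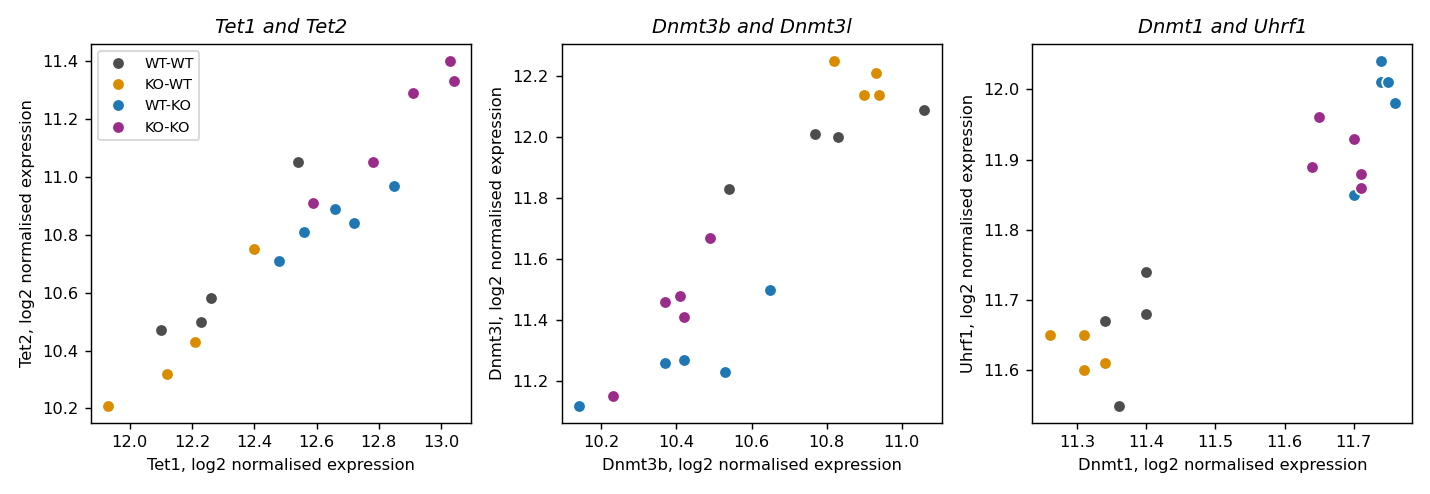
Each point is 1 of the 18 libraries, coloured by genotype; both axes are log2 normalised expression. Tet1 and Tet2 rise together within and across genotypes (r = 0.94 after subtraction of genotype means), whereas Dnmt1 and Uhrf1 form a Lin28a-intact and a Lin28a-null group with little relation inside each (r = 0.24).

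The genes most like each member over the 18 libraries, by Pearson r of the values, are given as a description; the r includes differences between genotypes. For Dnmt1 they were Adar (r = 0.988), Aldh18a1 (0.987) and Pck2 (0.987), and for Uhrf1 Camkk1 (0.980) and Ephb4 (0.978). Dnmt3a was followed by Ywhag (0.967), Prdx6 (0.950) and Gja1 (0.938), Dnmt3b by Pou3f1 (0.961), Trmt2a (0.957) and Ddr1 (0.956), and Dnmt3l by Dusp5 (0.985), B9d1 (0.982) and Tex19.1 (0.982). Pou3f1 is a transcription factor of the primed state, and Tex19.1 a germline gene known to be repressed by DNA methylation. The nearest to Tet1 were Pou2f1 (0.978), Huwe1 (0.977) and Enah (0.977). Tet2 was nearest to Ttc39b (0.976), Ncor1 (0.975) and Tet1 (0.963), Tet3 to Zbtb7c (0.956), Baiap2 (0.950) and Ap3d1 (0.945), and Tdg to Stmn3 (0.950), Map1a (0.931) and Glis2 (0.896).

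The counts of the following lists are to be read against all genes tested, of which 42.4% were called for Lin28a loss in Trim71-intact cells and 42.8% in Trim71-null cells. Among 10 tested genes of a list of 11 that regulate these enzymes, 4 were higher and 1 lower with Lin28a loss in Trim71-intact cells, and 5 were higher and none lower in Trim71-null cells; the list medians were 0.06 and 0.22. Prdm14, a transcription factor known to repress Dnmt3b and Dnmt3l, was higher by 0.715 ± 0.072 (adjusted p = 1.19e-06) and by 0.86 ± 0.072 (adjusted p = 1.54e-07). Dppa3, known to hold Uhrf1 away from chromatin in the oocyte, was higher by 0.86 ± 0.12 (adjusted p = 3.83e-05) and by 0.67 ± 0.12 (adjusted p = 0.000360). Tcl1, an Akt cofactor of naive stem cells, was higher by 0.815 ± 0.081 (adjusted p = 1.07e-06) and by 0.85 ± 0.081 (adjusted p = 6.25e-07). With loss of Trim71, Tcl1 fell by 0.36 ± 0.088 in Lin28a-intact cells (adjusted p = 0.0209) and by 0.32 ± 0.075 in Lin28a-null cells (adjusted p = 0.0159).

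Of 19 tested accessory and reader genes, from a list of 20, 3 were higher and 4 lower with Lin28a loss in Trim71-intact cells, and 5 were higher and 2 lower in Trim71-null cells. The methyl-CpG binding genes Mbd1 and Mbd2 fell by 0.405 ± 0.058 (adjusted p = 4.44e-05) and 0.38 ± 0.085 (adjusted p = 0.00201) in the first comparison, as did Zbtb33, another reader, by 0.48 ± 0.10 (adjusted p = 0.00132). Cdca7, which works with the remodeller Hells in maintaining methylation, fell with Trim71 loss by 0.16 ± 0.049 with Lin28a intact (adjusted p = 0.0443) and by 0.21 ± 0.042 without Lin28a (adjusted p = 0.00492).

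Downstream of Tdg, 16 genes of cytosine repair were tested. With Lin28a loss 4 were higher and 3 lower in Trim71-intact cells, and 4 higher and 4 lower in Trim71-null cells. The 3 lower ones in the first comparison were the stress-response genes Gadd45b, Gadd45g and Gadd45a, linked to active demethylation. Gadd45b fell by 0.88 ± 0.068 (adjusted p = 6.29e-08) and, in Trim71-null cells, by 1.15 ± 0.068 (adjusted p = 3.15e-09). Gadd45g fell by 0.84 ± 0.13 (adjusted p = 6.62e-05) and in Trim71-null cells fell by 1.13 ± 0.13 (adjusted p = 3.14e-06), and Gadd45a by 0.46 ± 0.069 (adjusted p = 7.45e-05) and by 0.57 ± 0.069 (adjusted p = 8.40e-06).

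Germline genes held silent by DNA methylation in many cells gave 17 tested genes, and the list median was -0.33 with Lin28a loss in Trim71-intact cells, where 10 were lower and 1 higher. In Trim71-null cells 6 were lower and 2 higher, with a median of -0.07. Taf7l, a germ cell transcription factor subunit, fell by 1.26 ± 0.14 (adjusted p = 4.18e-06) and by 0.90 ± 0.14 (adjusted p = 0.000111), and Tex101 by 0.62 ± 0.077 (adjusted p = 9.48e-06) and by 0.69 ± 0.077 (adjusted p = 3.28e-06). Dazl, a germ cell RNA-binding protein, was higher by 0.67 ± 0.11 in Trim71-null cells (adjusted p = 0.000108). DNA methylation itself was not measured.

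Of 11 genes of the methyl donor cycle, 2 were higher and 2 lower with Lin28a loss in Trim71-intact cells, and 3 higher and 2 lower in Trim71-null cells. Of 10 genes that set the supply of 2-oxoglutarate, the cosubstrate of the Tet enzymes, 3 were higher and 1 lower in both comparisons. Of 16 DNA replication genes, 3 were higher and none lower in Trim71-intact cells, namely Mcm3, Mcm2 and Cdt1, by 0.26 ± 0.040, 0.24 ± 0.039 and 0.19 ± 0.052 (adjusted p = 8.02e-05, 0.000156 and 0.00758). In Trim71-null cells 3 were higher and 1 lower. The list medians for replication were 0.03 and -0.03.

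**Figure D4:**
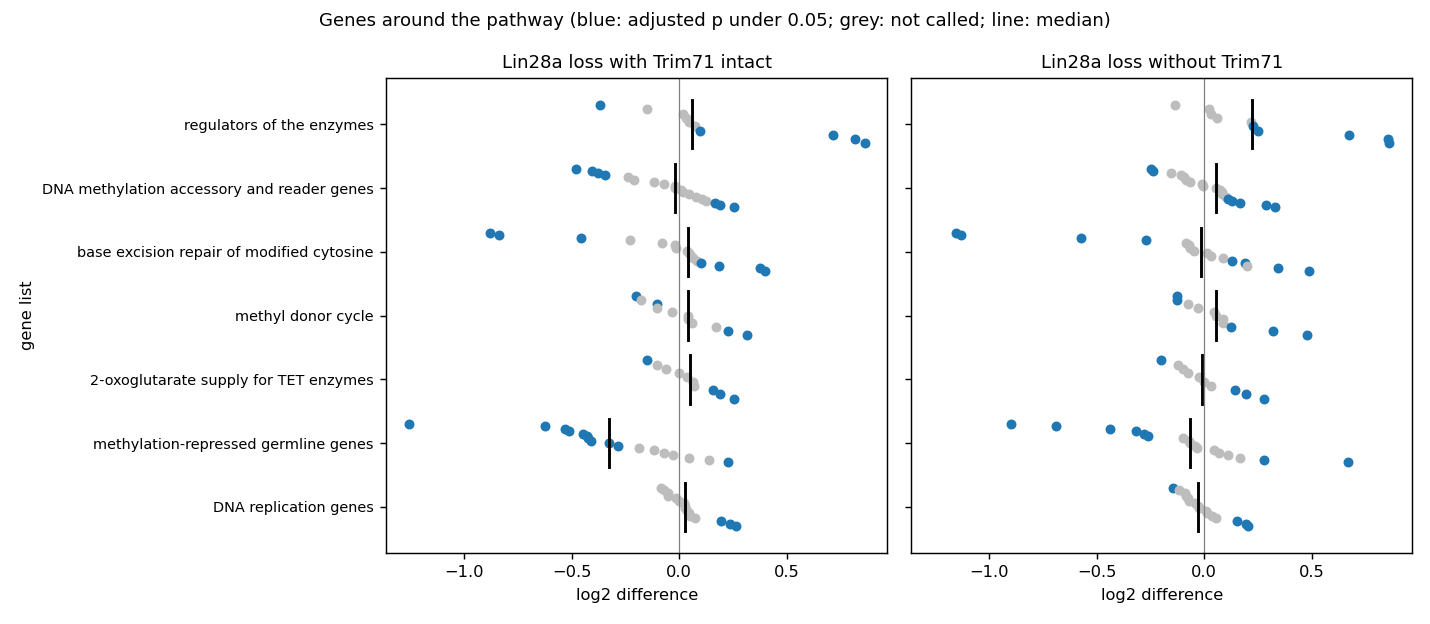
Each point is 1 tested gene of a list (rows); the horizontal axis is the log2 difference for Lin28a loss in Trim71-intact cells (left) and Trim71-null cells (right). Blue points have an adjusted p under 0.05, and the vertical line in each row is the list median, which for the germline genes is -0.33 on the left and -0.07 on the right.

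Markers of other cell types differed between the same genotypes as the enzymes. Summed on the linear scale, 10 trophectoderm markers lay between 4800 and 6330 in WT-WT, 4820 and 5860 in KO-WT, 1370 and 1600 in WT-KO, and 1210 and 1490 in KO-KO. The sum of 10 primitive endoderm markers lay between 8840 and 9810, 9280 and 11100, 3780 and 4650, and 4390 and 5220 in the same order. Of the 8 tested in each list, 6 trophectoderm and 8 primitive endoderm markers were lower with Lin28a loss in Trim71-intact cells. Krt8 fell by 4.22 ± 0.15 on the log2 scale (limma adjusted p = 1.67e-11), and Dab2 fell by 2.78 ± 0.18 (limma adjusted p = 9.27e-09). In that comparison 2 of the 8 trophectoderm differences were above 0. Krt8 and Krt18 reached 11.33 and 11.02, whereas Tfap2c and Tead4 ranged only from 9.42 to 9.96 and from 7.77 to 8.21. Among the endoderm markers the highest values were those of Sparc, Col4a1 and Lama1, up to 12.72, 11.04 and 10.95. Both sums thus weigh a few genes most and do not follow each marker. The defining trophectoderm factors Cdx2 and Elf5 did not pass the filter, with values up to 3.13 and 1.02, nor did the endoderm factors Sox17 and Foxa2, with values up to 3.59 and 2.03. The part of such cells in the differences of the methylation enzymes was not tested, and in these bulk libraries fewer cells of a type and less RNA per cell cannot be told apart.

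The sum of 10 stem cell markers lay between 38400 and 40500 in WT-WT, 40800 and 43900 in KO-WT, 47600 and 53000 in WT-KO, and 50100 and 53100 in KO-KO. Nanog was higher by 0.86 ± 0.077 with Lin28a loss in Trim71-intact cells (adjusted p = 3.45e-07). Of the 9 tested stem cell markers, 7 were higher and 0 lower in that comparison, and 4 were higher and 1 lower in Trim71-null cells. Pou5f1 and Sox2 were present in every library, at 12.55 to 12.93 and 11.37 to 11.76. With Lin28a loss they were called higher in Trim71-intact cells, by 0.165 and 0.21, and not called in Trim71-null cells. The 8 germ cell markers summed to between 2510 and 2670, 2240 and 2450, 3080 and 3620, and 2910 and 3100. Of the 7 tested, 3 were higher and 1 lower with Lin28a loss in Trim71-intact cells, and 4 were higher and 0 lower in Trim71-null cells. The 5 fibroblast markers with a row in the table summed to between 303 and 347, 287 and 322, 360 and 415, and 326 and 382. The fibroblast sum does not follow each of its genes: with Lin28a loss in Trim71-intact cells Fbln1 was higher by 0.52 ± 0.075 (adjusted p = 4.45e-05), whereas Col1a2 fell by 1.88 ± 0.15 (adjusted p = 1.11e-07) and Col1a1 fell by 0.87 ± 0.13 (adjusted p = 7.99e-05).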

How the data were processed

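Per the labels' protocols, RNA was extracted with TRIzol, made into libraries with the Illumina TruSeq RNA kit and sequenced paired-end. Per the submitters' processing notes, CASAVA 1.8, STAR and DESeq2 were used, with no role given; the genome build is not given in the sources used here. The authors deposited 1 table of log2 values; no source names the scale, and base 2 was inferred from the values, which ran from -0.71 to 16.30. No harvest day had an effect over 1.7e-08 on any gene once genotype was fitted, so day effects had been removed. One further library, labelled KO-WT, differed from its genotype's average by at most 1.5e-08 in any gene and was left out. Depth is unknown.

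The 14988 genes that reached log2 of 10 in 4 or more libraries were tested with limma 3.58.1 in R 4.3.3 (genotype plus a term per day, eBayes with trend, two-sided, 10 residual degrees of freedom). Harvest day, from the labels, pairs the libraries; because its effect had been removed, a check of the pairing by correlation is void. The 9 genes were named, and from every other list up to 3 called genes per comparison with the largest difference, plus the 3 genes most correlated with each member. Some genes that this rule names are not reported here. The genes Pou5f1 and Sox2, and the markers that did not pass the filter, were named outside this rule. The members and lists were chosen with earlier results of these data known. Promoters and let-7 came from RefSeq tables and 3′ untranslated regions from GENCODE M21.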

Additional observations from a re-analysis of the deposited data

How the results depend on the processing

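Each comparison was refitted with no day term, with all 19 libraries, with no filter or a minimum of log2 of 50, with 75th percentile or trimmed mean scaling, with a correction for transcript GC content and length (14724 genes), with eBayes without trend, with only the genotypes compared, with clones E3 and C1 alone, with clones 1 and 1-4 alone, with the 3 days that held all 4 genotypes, and without each library in turn. Of 1408 refitted values of single genes, 1328 kept their direction and side of the threshold. A further 43 lost the call, 26 gained it, and 11 changed sign. Counts of called genes are not among these values and follow below. Calls for Lin28a loss in Trim71-null cells were all kept under the 30 alternatives, but values ranged from 0.39 to 0.92 for Tet2 and from 0.47 to 0.81 for Tet1, the lowest of each in clones 1 and 1-4 alone. Causes were not tested.

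With Trim71 loss and Lin28a intact, 0 of the 9 genes were called with no filter, eBayes without trend, only the genotypes compared, either pair of clones alone or 3 days; over all genes the calls went from 1674 to 1360, 1246, 30, 10 (E3 and C1), 344 (1 and 1-4) and 474. Without Lin28a, 0 were called in clones E3 and C1 alone or with 3 days (153 and 217 of all genes, from 1256), and 3 with the GC and length correction. Without the replicate block (no day term) 2 were called with Lin28a intact and 4 without it; over all genes the calls rose from 1674 to 4219 and from 1256 to 2618, and for the interaction from 3 to 673. In clones E3 and C1 alone 3 genes were called for Lin28a loss in Trim71-intact cells and 5 for loss of both, while over all genes the calls fell to 2323 and 2668, from 6351 and 6834. Leaving out 1 library gave 0 to 1 calls for Trim71 loss with Lin28a intact, 0 to 2 without Lin28a, 5 to 7 for Lin28a loss in Trim71-intact cells, 7 to 8 in Trim71-null cells and 9 for loss of both.

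Values that changed sign were called on neither side. With Trim71 loss and Lin28a intact, Tet1 was 0.10 with the GC and length correction and 0.27 in clones 1 and 1-4 alone, where Tet2 was 0.32. Leaving out 1 library gave -0.0272 to 0.227 for Dnmt3b, -0.235 to 0.0077 for Tet1 and -0.0847 to 0.0065 for Uhrf1. Without Lin28a, Dnmt3b was 0.0212 in clones 1 and 1-4 alone, 0.0719 with 3 days and -0.132 to 0.047 without 1 library. Tet3 was -0.0013 for Lin28a loss in Trim71-null cells with the GC and length correction.

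In Trim71-intact cells, clones E3 and C1 alone ended the calls for Lin28a loss of Dnmt3a (-0.48, adjusted p = 0.0587), Dnmt3b (-0.36, adjusted p = 0.161) and Tet1 (0.26, adjusted p = 0.261). For Tet2 in these cells, clones 1 and 1-4 alone gave 0.36 (limma adjusted p = 0.00409). The call of Tdg for loss of both was lost under 4 of 30 alternatives.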
